A study of Mus musculus with 8 samples.

Results

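Sst, Npy, Nos1, Pvalb, Calb2, Cort and Vip are 7 genes whose products mark the inhibitory interneurons of the forebrain, and they were followed here through the striatum of mice given the neurotoxin MPTP with or without needling. The members were the probe sets whose annotation names exactly 1 of these symbols. Each gene had 1 such probe set, so that 7 of the 19938 genes measured by single-symbol probe sets were described. The arrays came from 8 male C57BL/6 mice, an inbred laboratory strain, aged 6 weeks, with 2 mice in each of 4 groups and 1 array per mouse. Acupoint mice were given 20 mg/kg MPTP at intervals of 24 h over 4 weeks, and in 14 sessions 48 h apart needles were placed to a depth of 3 mm at GB34 and 1 mm at LR3. Non-acupoint mice received the same MPTP course and the same number of sessions, with the needles placed 3 mm deep at the hips. MPTP mice received the toxin without needling, and control mice received saline. The labels name no engineered allele in any group. The question was what MPTP did to these genes, and whether needling and its site mattered.

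MPTP damages the dopamine axons that reach the striatum, the forebrain nucleus in which most neurons are GABA-releasing medium spiny projection neurons. A small minority of striatal neurons are local GABA interneurons, which control the firing of the projection neurons. The classes are told apart by what they make. Sst, Npy and Nos1 are made together in low-threshold-spiking interneurons: Sst encodes somatostatin, an inhibitory peptide, Npy encodes neuropeptide Y, and Nos1 encodes neuronal nitric oxide synthase, which makes the diffusible messenger nitric oxide. Some neurogliaform interneurons also make neuropeptide Y. Pvalb encodes parvalbumin, the calcium buffer of fast-spiking interneurons, and Calb2 encodes calretinin, the calcium buffer of another class. Cort encodes cortistatin, a peptide related to somatostatin, and Vip encodes vasoactive intestinal peptide. Both are known mainly from interneurons of the cerebral cortex. Because the tissue was analysed in bulk, fewer cells of a type and less RNA per cell cannot be told apart.

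The sequence just upstream of 4 of these genes is printed because 3 of them, Sst, Npy and Nos1, mark the same class of cell and had like profiles below, and because Sst and Vip are textbook targets of cyclic AMP signalling. Each run is the 120 bases that end just before the annotated start, 5′ to 3′ on the gene's own strand, from RefSeq (build GRCm38.p6). Sst lies at chr16:23890845-23890964 on the minus strand, Npy at chr6:49822590-49822709, Nos1 at chr5:117866719-117866838 and Vip at chr10:5639098-5639217, these 3 on the plus strand. Capitals mark the cyclic AMP response element TGACGTCA in Sst and its core TGACG in Vip.
Sst: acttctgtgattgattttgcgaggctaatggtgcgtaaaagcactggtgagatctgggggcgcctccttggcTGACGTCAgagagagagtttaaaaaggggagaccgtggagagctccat
Npy: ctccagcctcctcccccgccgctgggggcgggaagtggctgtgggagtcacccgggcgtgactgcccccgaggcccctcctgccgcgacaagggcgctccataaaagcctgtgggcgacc
Nos1: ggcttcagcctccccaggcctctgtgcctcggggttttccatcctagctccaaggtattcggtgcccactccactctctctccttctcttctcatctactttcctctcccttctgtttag
Vip: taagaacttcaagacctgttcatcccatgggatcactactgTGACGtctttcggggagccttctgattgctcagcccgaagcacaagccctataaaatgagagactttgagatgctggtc
Promoter windows of 300 bases, running 250 bases before to 50 after the start, were matched for 6 of the 7 genes. Both strands were searched. The full element reads the same on either strand, and each full match also holds the core on both strands. The full element was found in the Sst window, at position -48, and in 588 (1.79%) of 32851 windows. The core was found in the windows of Sst, Nos1 (at -130), Cort (at -18) and Vip (at -79), and in 6837 (20.8%) of all windows. Neither was found in the windows of Npy and Pvalb. These matches are letters in a window, and no binding was measured.

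The values are log2 RMA values, on which a difference of 1 is a 2-fold difference, and they set no gene's level against another's. The MPTP mice differed from each other more than the mice of any other group. Within groups the arrays correlated at 0.950 for MPTP, against 0.989 for acupoint, 0.989 for non-acupoint and 0.995 for control, and 5.07% of tested probe sets differed by at least 1 between the MPTP mice, against 0.00612% between the controls. MPTP mouse 1 stood apart. Its 13 medium spiny neuron markers averaged -1.99 relative to the control mean, with every gene between -2.54 and -1.12. In the other 7 arrays that average lay between -0.62 and 0.34. Drd1, the dopamine receptor of one class of projection neuron, chosen after its values were seen, was at 7.93 in MPTP mouse 1, against 9.61 to 10.68 in the other arrays. Its 13 thalamus markers averaged 2.31 above the control mean, and its 11 choroid plexus markers 2.30 above it. The summed log2 level of the medium spiny neuron markers spanned 131 to 136 in acupoint, 125 to 132 in non-acupoint, 108 to 138 in MPTP and 133 to 134 in control mice. The same range for the thalamus markers was 97.4 to 107, 101 to 118, 90.5 to 128 and 98.3 to 98.4, and for the choroid plexus markers 68.6 to 93.7, 91.5 to 99.1, 65.2 to 92.2 and 66.6 to 67.0, in the same order of groups. RMA values have no zero, so no marker can be called absent. Differences of the 7 genes that involve the MPTP group are given without MPTP mouse 1 where this turns their sign or moves them by over 1.5 times, and those of other named genes likewise.

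The genes of low-threshold-spiking interneurons were lowest in MPTP mouse 1. Sst was at 10.82 and 10.92 in acupoint mice, 10.78 and 10.69 in non-acupoint mice, 9.58 and 10.99 in MPTP mice, and 10.77 and 10.79 in control mice. The MPTP mice held both the lowest and the highest Sst value of the 8, and enclosed every other group. Npy was at 9.36 and 9.64 in acupoint mice, 9.39 and 9.07 in non-acupoint mice, 8.47 and 9.96 in MPTP mice, and 9.55 and 9.47 in control mice. The MPTP mice again held both extremes, and both non-acupoint values lay below both control values. Nos1 was at 7.67 and 8.12 in acupoint mice, 7.96 and 7.73 in non-acupoint mice, 7.06 and 8.01 in MPTP mice, and 7.57 and 7.71 in control mice. MPTP mouse 1 was lowest for Nos1 as well, while acupoint mouse 2 was highest. The range of Sst over the 8 arrays was 1.41, larger than that of 96.8% of tested probe sets, whose median range was 0.431. Without MPTP mouse 1 the Sst range was 0.30. For Npy the range was 1.49 with that mouse and 0.88 without it, and for Nos1 1.06 and 0.55. The medium spiny neuron markers averaged -0.16 and 0.23 relative to the control mean in acupoint mice. That average was -0.13 and -0.62 in non-acupoint mice, and -1.99 and 0.34 in MPTP mice. In each of these groups the mouse with the higher average also had the higher Sst, Npy and Nos1. In control mice, at 0.0041 and -0.0041, the first had the higher Npy and the second the higher Sst and Nos1. The part of these markers in the Sst, Npy and Nos1 values was not tested. RefSeq lists 2 other genes that overlap Nos1 (Gm30360 and Gm26995), and probe positions were not used here to separate them.

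The calcium-buffer genes had the widest ranges of the 7 and ran the other way in the MPTP mice. Pvalb was at 9.91 and 8.89 in acupoint mice, 9.02 and 9.96 in non-acupoint mice, 10.60 and 8.18 in MPTP mice, and 8.60 and 8.48 in control mice. All 4 needled mice exceeded both controls, whereas the MPTP mice lay on either side of them. Calb2 was at 9.88 and 8.73 in acupoint mice, 9.89 and 10.35 in non-acupoint mice, 10.12 and 7.79 in MPTP mice, and 8.75 and 8.81 in control mice. Both non-acupoint mice exceeded both controls, and the other groups overlapped the controls. The Pvalb range of 2.42 exceeded that of 99.4% of tested probe sets, and was 1.78 without MPTP mouse 1. The Calb2 range of 2.56 exceeded that of 99.5%, and did not depend on that mouse, since its extremes were MPTP mouse 2 and non-acupoint mouse 2. As background, parvalbumin is also made in the thalamic reticular nucleus and calretinin in midline thalamus. The thalamus markers averaged 0.69 and -0.07 relative to the control mean in acupoint mice, 0.21 and 1.5 in non-acupoint mice, and 2.31 and -0.61 in MPTP mice. In each of these groups the mouse with the higher thalamus average was also the mouse with the higher Pvalb and the higher Calb2. In control mice, at 0.0031 and -0.0031, the first had the higher Pvalb and the second the higher Calb2. The choroid plexus average was 2.44 and 0.16 in acupoint mice, 2.24 and 2.94 in non-acupoint mice, 2.30 and -0.15 in MPTP mice, and 0.020 and -0.020 in control mice. In every group it was higher in the same mouse as the thalamus average. The part of these markers in the Pvalb and Calb2 values was not tested.

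Cort and Vip, the peptides known mainly from cortex, varied less. Cort was at 6.74 and 6.81 in acupoint mice, 6.78 and 6.44 in non-acupoint mice, 6.84 and 7.01 in MPTP mice, and 7.10 and 6.85 in control mice. Every needled mouse had a lower Cort value than every MPTP and control mouse. Vip was at 5.0 and 5.0 in acupoint mice, 5.09 and 4.74 in non-acupoint mice, 4.55 and 5.05 in MPTP mice, and 5.26 and 5.30 in control mice. Both controls lay above all 6 MPTP-treated mice. The share of tested probe sets that separated the mice in either of these ways was not computed. The Cort range of 0.66 exceeded that of 79.5% of tested probe sets and the Vip range of 0.75 that of 85.3%. With a mean of 5.0, Vip fell short of the level of 5.25 required for testing, so that 6 of the 7 genes entered the filtered fit, and the Vip tests below come from the fit without that filter. The 10 cortical excitatory neuron markers averaged -0.37 and -0.48 relative to the control mean in acupoint mice, -0.59 and -0.05 in non-acupoint mice, and -0.14 and 0.01 in MPTP mice. Their part in the Cort and Vip values was not tested.

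**Figure D1:**
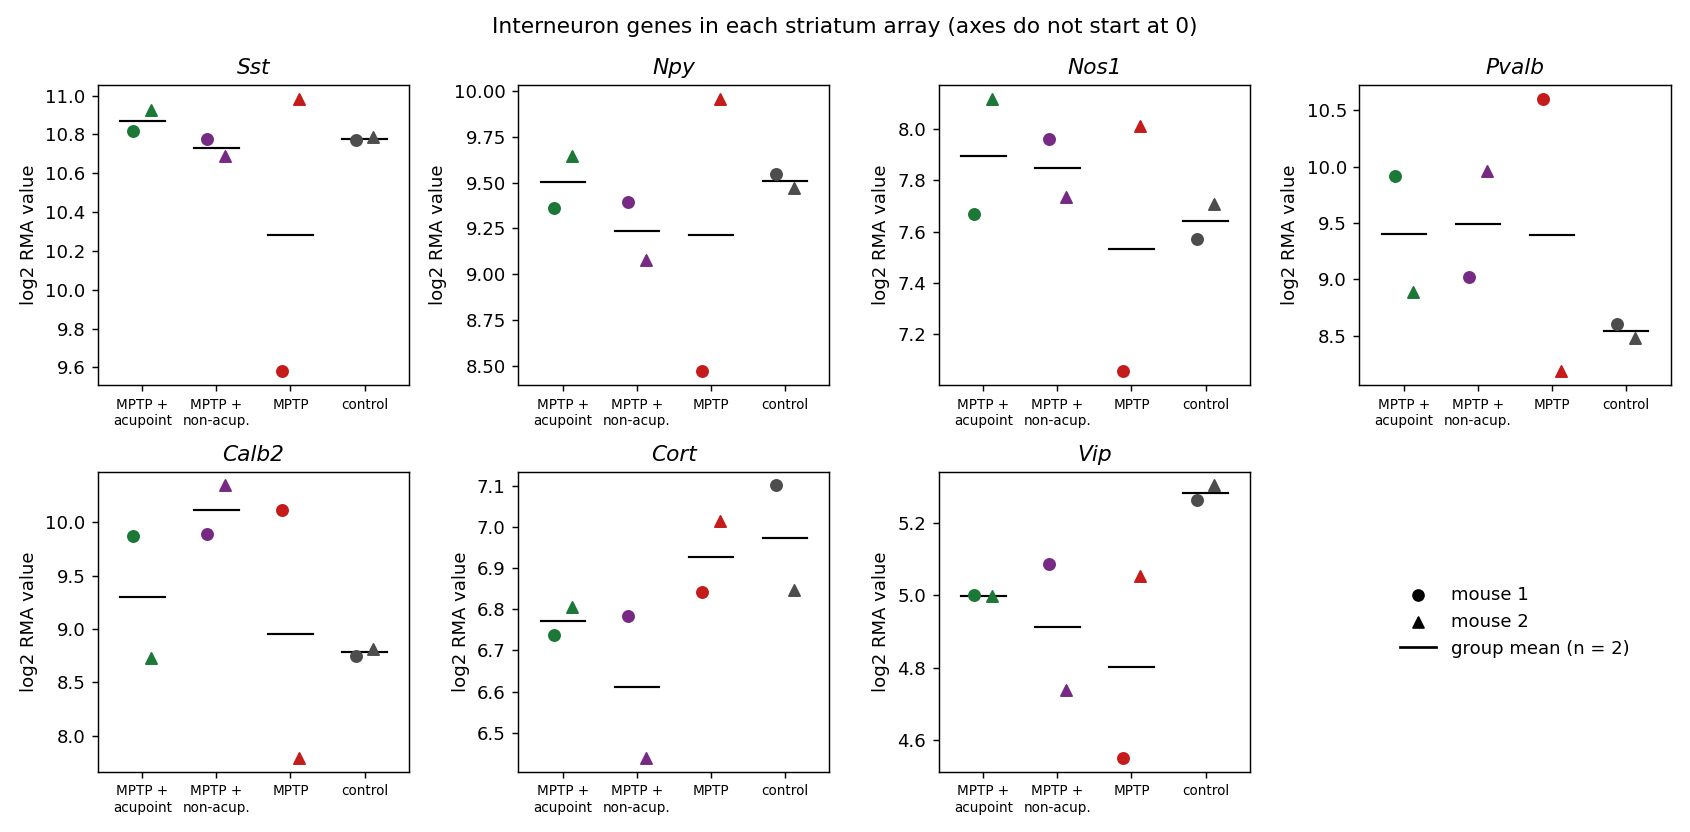
Log2 RMA value (vertical axes, not starting at 0) of each of the 7 genes in each striatum array, by group, with 1 point per mouse and a line at the group mean (n = 2). MPTP mouse 1 is lowest for Sst (9.58), Npy (8.47), Nos1 (7.06) and Vip (4.55) and highest for Pvalb (10.60), while the 2 controls lie close together for Sst (10.77 and 10.79) and Calb2 (8.75 and 8.81).

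Toxin alone did not separate from saline for any gene of the 6 that passed the filter. In MPTP mice Sst averaged 10.28 ± 0.99 and Npy 9.21 ± 1.05, against 10.78 ± 0.01 and 9.51 ± 0.06 in control mice (SD, n = 2 each). The differences, MPTP minus control, were -0.50 for Sst (SE 0.39, adjusted p = 0.932, limma over all tested probe sets), -0.30 for Npy (SE 0.43, adjusted p = 0.941) and -0.11 for Nos1 (SE 0.30, adjusted p = 0.967). Pvalb differed by 0.85 (95% interval -0.93 to 2.64, adjusted p = 0.932), Calb2 by 0.17 (-1.51 to 1.86) and Cort by -0.05 (-0.41 to 0.31). The intervals span 0 for all 6 and are wide, so that they do not show the groups to be alike. Of the 6 genes, 0 passed an adjusted p of 0.05 and 0 had an unadjusted p under 0.05, against 0% and 3.99% (652) of the 16342 probe sets tested. The 2 groups overlapped for all 6, while 29.3% of tested probe sets did not overlap. Vip differed by -0.48 (95% interval -0.92 to -0.05, unadjusted p = 0.035, adjusted p = 0.965, limma without the filter), and its groups did not overlap.

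The direction of all 6 of these differences depended on which MPTP mouse was kept. With MPTP mouse 1 left out, the difference was 0.21 for Sst, 0.45 for Npy and 0.37 for Nos1, and -0.35 for Pvalb and -0.99 for Calb2, the opposite sign in each case. The Cort difference was 0.04 without that mouse and -0.13 without MPTP mouse 2. Vip kept its sign at -0.23. With MPTP mouse 2 left out, so that mouse 1 alone stood for the group, Sst differed by -1.20, Npy by -1.04 and Pvalb by 2.06. These differences describe mouse 1, and whether they are particular to these genes was not tested.

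**Figure D2:**
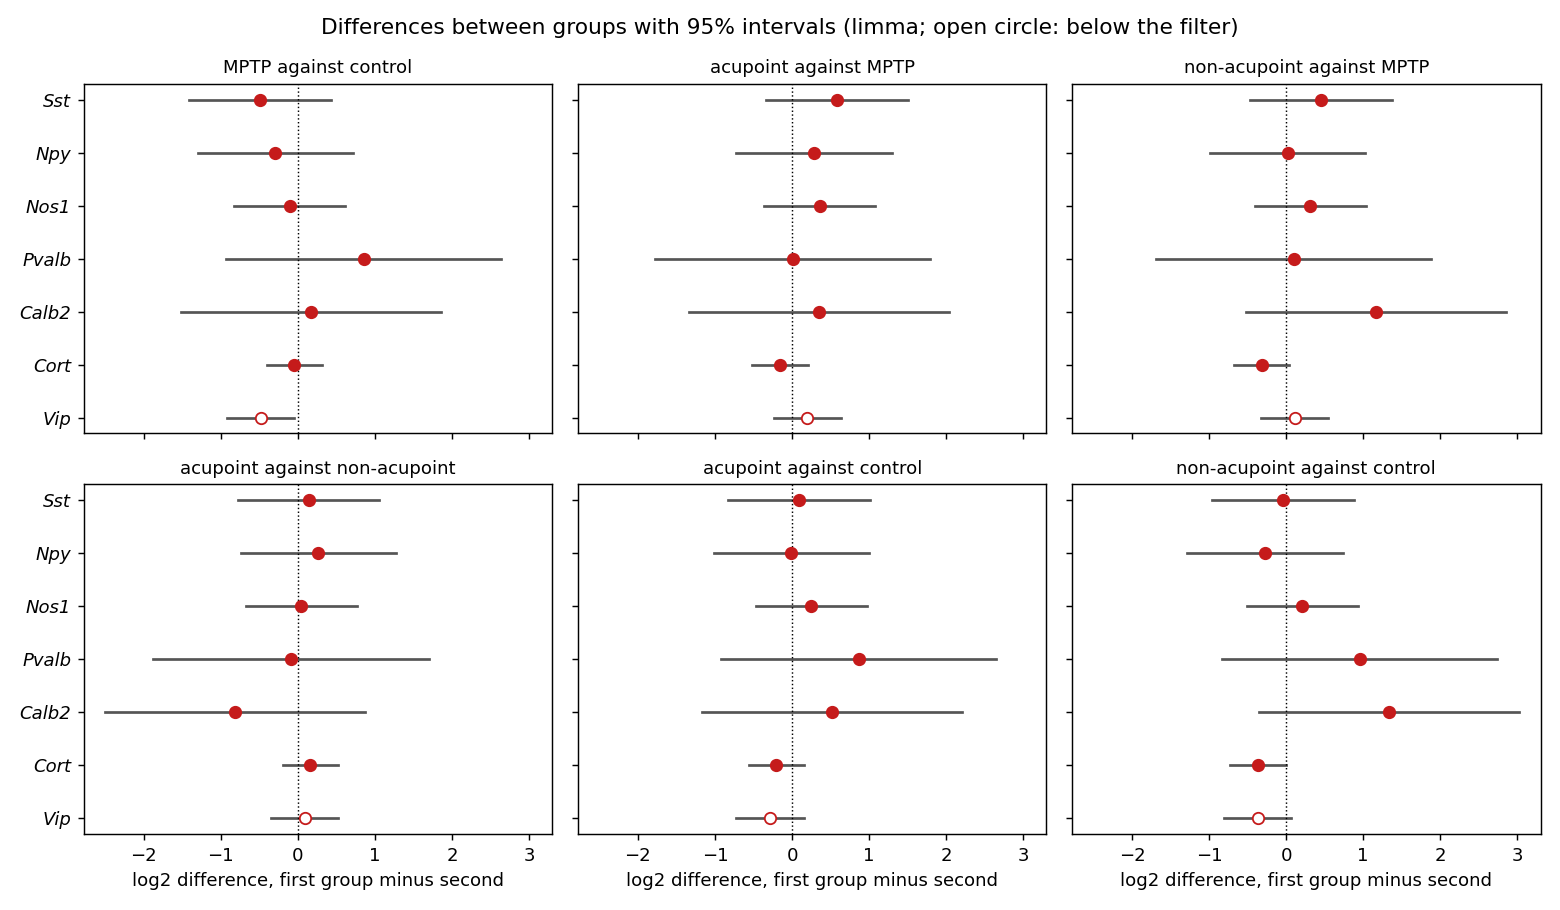
Difference in log2 RMA value (horizontal axis, first-named group minus second) for each gene in each of the 6 comparisons over all 8 arrays, with limma's 95% interval as a line and an open circle for Vip, which lay below the filter. The intervals of Pvalb and Calb2 are the widest and span 0 in all 6 panels, and the largest difference drawn is that of Calb2 for non-acupoint against control (1.34).

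Needling at the acupoints was set against MPTP without needling. Sst averaged 10.87 ± 0.08 in acupoint mice and 10.28 ± 0.99 in MPTP mice (SD, n = 2 each), a difference of 0.59 (SE 0.39, adjusted p = 0.902). Nos1 differed by 0.36, Calb2 by 0.35, Npy by 0.29, Cort by -0.16 and Pvalb by 0.01. Of the 6 genes, 0 had an unadjusted p under 0.05, against 3.6% (588) of tested probe sets, and 0 passed the adjusted threshold, against 0%. Cort was the only member whose groups did not overlap, and was lower in acupoint mice, against 18.9% of tested probe sets lower without overlap and 27.3% without overlap in either direction. Without MPTP mouse 1 the Sst difference was -0.11, that of Npy -0.46 and that of Nos1 -0.12, while Pvalb stood at 1.22, Calb2 at 1.52 and Cort at -0.24. With that mouse as the only MPTP array, the difference was 1.29 for Sst, 1.03 for Npy and 0.84 for Nos1.

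Needling at the hips was set against MPTP in the same way. Calb2 averaged 10.12 ± 0.33 in non-acupoint mice and 8.95 ± 1.64 in MPTP mice, a difference of 1.17 (95% interval -0.52 to 2.85, adjusted p = 0.753). Sst differed by 0.45, Nos1 by 0.32, Pvalb by 0.10, Npy by 0.02 and Cort by -0.32 (95% interval -0.68 to 0.04). Of the 6 genes, 0 had an unadjusted p under 0.05, against 6.58% (1076) of tested probe sets, and 0 passed the adjusted threshold, against 0%. Cort, lower in non-acupoint mice, was again the only member whose groups did not overlap, against 17.7% of tested probe sets lower without overlap and 33.1% in either direction. With MPTP mouse 1 left out, Calb2 differed by 2.33 and Npy by -0.72, with adjusted p of 0.180 and 0.196, and Sst by -0.25, Nos1 by -0.16 and Pvalb by 1.31. Without MPTP mouse 2 the Calb2 difference was 0.0020, so that it came from MPTP mouse 2 alone. With mouse 1 as the only MPTP array, the Sst difference was 1.15.

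Between the needling sites the MPTP mice enter the shared variance but not the difference. Calb2 was lower after acupoint needling, at 9.31 ± 0.81 in acupoint mice and 10.12 ± 0.33 in non-acupoint mice (SD, n = 2 each), a difference of -0.81 (95% interval -2.50 to 0.87, adjusted p = 0.964). Npy differed by 0.27, Cort by 0.16, Sst by 0.14, Pvalb by -0.09 and Nos1 by 0.04. Sst (higher) and Calb2 (lower) were the 2 members whose groups did not overlap, against 13.9% of tested probe sets higher and 24.6% lower without overlap (38.5% in all), and the closest Calb2 values of the groups were 9.88 and 9.89. None of the 6 had an unadjusted p under 0.05 in limma, against 3.22% (526) of tested probe sets, and 0 passed the adjusted threshold, against 0%. When MPTP mouse 1 was left out, Calb2 had an unadjusted p of 0.047 at the same difference (adjusted p = 0.615, limma), as 7.84% of tested probe sets were under 0.05.

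Each needled group was also set against saline, where both toxin and needling differ. In acupoint mice Pvalb averaged 9.40 ± 0.72, against 8.54 ± 0.09 in control mice, a difference of 0.86 (95% interval -0.92 to 2.65). Calb2 differed by 0.52, Nos1 by 0.25, Sst by 0.09, Npy by -0.01 and Cort by -0.20, all with an adjusted p of 0.9999. Sst and Pvalb (higher) and Cort (lower) did not overlap between the groups, 3 of 6, against 12.7% of tested probe sets higher and 21.2% lower without overlap (33.9% in all). At an unadjusted p of 0.05 the counts were 0 of 6 and 1.91% (312), and at the adjusted threshold 0 of 6 and 0%.

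In non-acupoint mice Calb2 averaged 10.12 ± 0.33, against 8.78 ± 0.04 in control mice, a difference of 1.34 (95% interval -0.35 to 3.02, unadjusted p = 0.10, adjusted p = 0.768, limma). Pvalb differed by 0.95, Nos1 by 0.21, Sst by -0.05 and Npy by -0.27. Cort averaged 6.61 ± 0.24 in non-acupoint mice and 6.97 ± 0.18 in control mice, a difference of -0.36 (unadjusted p = 0.048, adjusted p = 0.768, limma). Cort was the 1 gene of the 6 under an unadjusted p of 0.05, and lower, against 6.05% (988) of tested probe sets (2.29% lower and 3.76% higher), and 0 passed the adjusted threshold, against 0%. When MPTP mouse 1, whose spread enters the shared variance, was left out, 3 of the 6 (Calb2, Pvalb and Cort) had an unadjusted p under 0.05 in limma, as did 12.4% (2028) of tested probe sets. Their adjusted p then lay between 0.326 and 0.388. Nos1, Pvalb and Calb2 (higher) and Npy and Cort (lower) did not overlap between the groups, 5 of 6, against 26.9% of tested probe sets higher and 22.6% lower without overlap (49.5% in all). Vip differed from control by -0.37 in non-acupoint mice and by -0.29 in acupoint mice. These comparisons share the control mice, as those above share the MPTP mice. A test of any difference among the 4 groups gave an adjusted p of 0.923 to 0.956 for the 6 genes, with 0% of tested probe sets called and 3.71% (607) under an unadjusted p of 0.05.

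**Figure D3:**
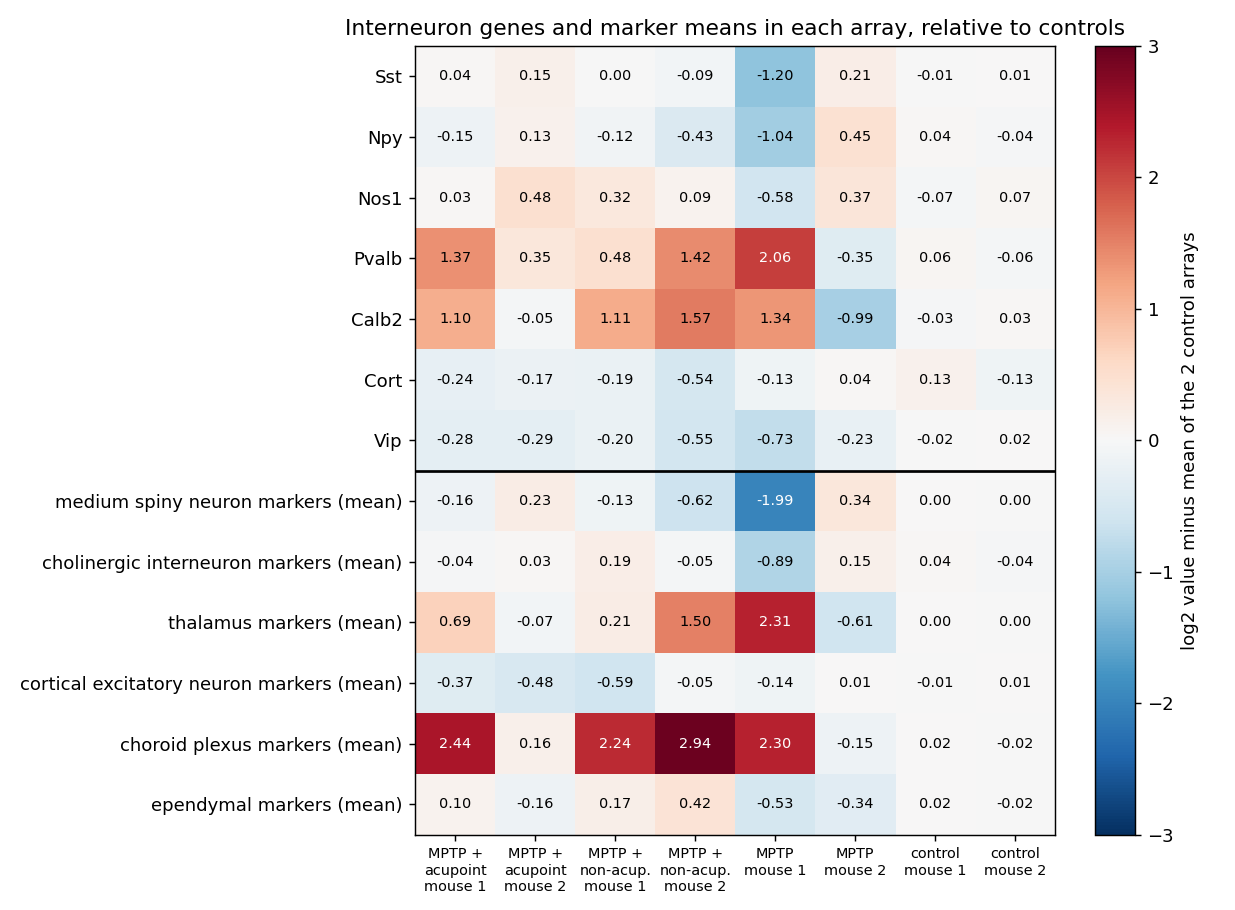
Heat map of log2 RMA value minus the control mean for the 7 genes and for the mean of marker lists (rows) in each array (columns). In MPTP mouse 1 the medium spiny neuron list is at -1.99 and the thalamus list at 2.31, beside Sst at -1.20 and Pvalb at 2.06.

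Over the 8 arrays, 5 of the 7 genes varied as opposed sets, Sst, Npy and Nos1 on the one hand and Pvalb and Calb2 on the other, although not every pair passed. Sst and Npy varied together (r = 0.91, rho = 0.79, adjusted p = 0.0076 for r, two-sided exact permutation test, Benjamini-Hochberg over 21 pairs). Nos1 went with Sst (r = 0.88, rho = 0.69, adjusted p = 0.032) and with Npy (r = 0.83, rho = 0.62, adjusted p = 0.049), by the same exact test. Pvalb and Calb2 went together (r = 0.87, rho = 0.86, adjusted p = 0.032, exact). Between the sets all 6 signs were negative, with Npy against Pvalb at r = -0.90 (rho = -0.90, adjusted p = 0.0076, exact) and Npy against Calb2 at r = -0.81 (rho = -0.95, adjusted p = 0.034, exact). The other pairs across the sets were Sst with Pvalb (r = -0.74, adjusted p = 0.034), Nos1 with Pvalb (r = -0.67, adjusted p = 0.0996), Sst with Calb2 (r = -0.52, adjusted p = 0.226) and Nos1 with Calb2 (r = -0.48, adjusted p = 0.272), of which the first passed the exact test. Cort passed with no partner, and Vip with Pvalb (r = -0.85, adjusted p = 0.032, exact). By sign Vip went with the first set, at r = 0.72 with Sst, 0.76 with Npy, 0.49 with Nos1 and -0.61 with Calb2. Cort was at -0.73 with Calb2, -0.59 with Pvalb and 0.42 with Npy, but at 0.07 with Sst and -0.03 with Nos1. The values of r therefore do not confine the split to the 5 genes. In all, 8 of the 21 pairs had an adjusted p under 0.05 for r, and 2 for rho. The share of pairs of other genes that would pass was not computed, so these counts are not shown to be particular to the members. The permutation also treats the 8 arrays as exchangeable, although they come from 4 groups.

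Leaving out arrays removed calls, and moved r little for some pairs and far for others. Without MPTP mouse 1, 3 pairs passed by the same exact permutation test: Npy with Calb2 (r = -0.94, adjusted p = 0.0083), Pvalb with Calb2 (r = 0.89, adjusted p = 0.035) and Sst with Npy (r = 0.91, adjusted p = 0.038). Without the 2 arrays farthest from the median of the first-named gene, 0 of the 21 pairs passed over the 6 arrays that remained, few for a test adjusted over 21 pairs. There r was -0.90 for Npy with Calb2 (adjusted p = 0.058, exact), 0.84 for Pvalb with Calb2, 0.81 for Sst with Npy and -0.77 for Npy with Pvalb. For Nos1, r without MPTP mouse 1 was 0.68 with Sst, 0.49 with Npy and -0.29 with Pvalb (-0.67 over all arrays). For Sst with Vip, r was 0.13 without that mouse and 0.72 over all arrays. Within groups, the mouse with the higher Sst was also the mouse with the higher Nos1 in 4 of 4 groups. The mouse with the higher Npy had the lower Calb2 in 4 of 4 groups. Sst and Npy were higher in the same mouse in 3 of 4 groups, as were Pvalb and Calb2, and the mouse with the higher Npy had the higher Pvalb in 1 of 4.

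**Figure D4:**
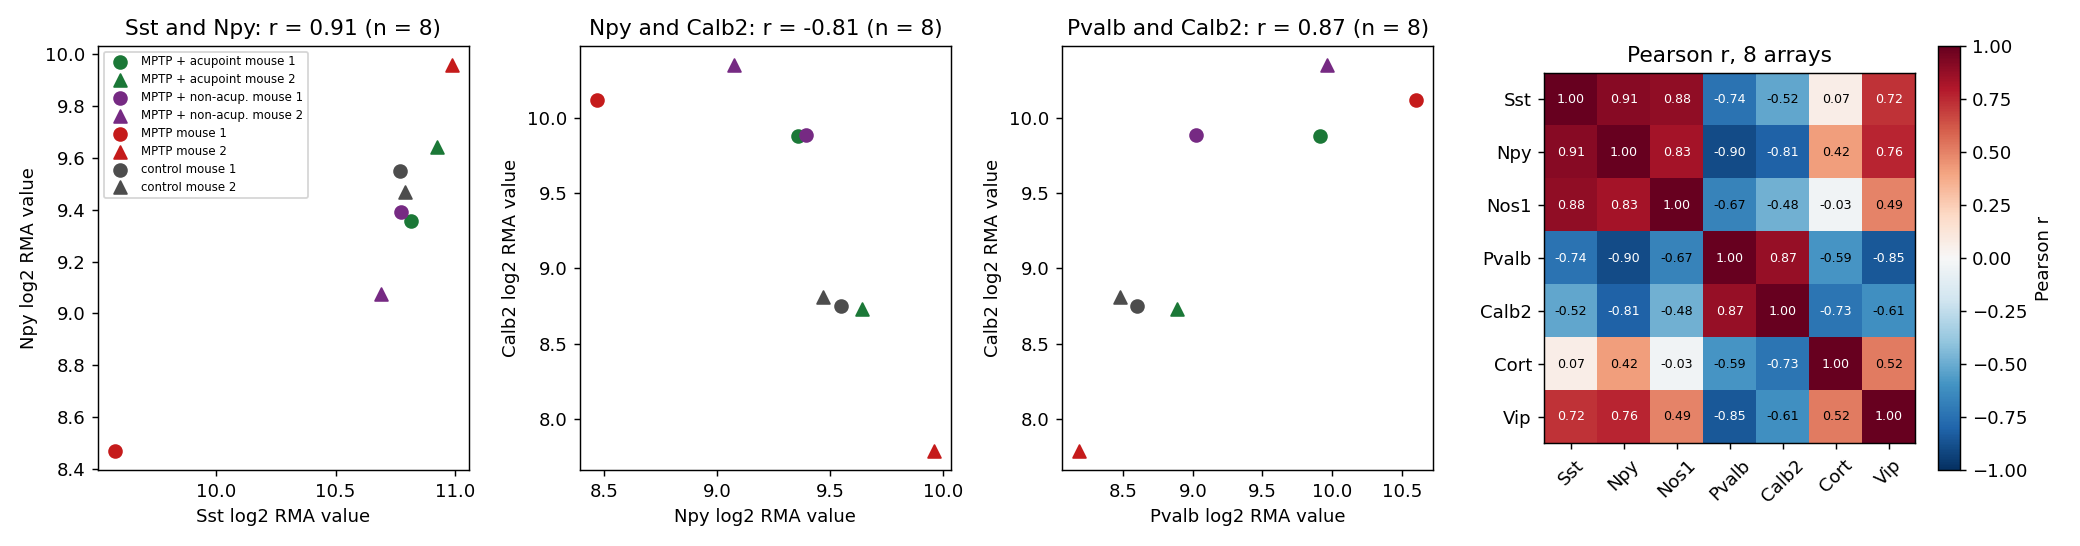
Log2 RMA values of Sst and Npy, Npy and Calb2, and Pvalb and Calb2 plotted against each other with 1 point per array (axes not starting at 0), and a heat map of Pearson r between each pair of the 7 genes over the 8 arrays. MPTP mouse 1 lies far from the other points for Sst and Npy (r = 0.91), and MPTP mouse 2 has the lowest Calb2 (7.79) beside the highest Npy (9.96).

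Among 5289 other genes with a range of at least 0.5, those whose profiles over the 8 arrays were most like each member are given as a description, without a test. Each array adds the same tissue sample to every gene, and the marker averages above differed between arrays. The highest were Cracdl (r = 0.997), Mctp1 (0.996) and Meis2 (0.994) for Sst, of which Mctp1 stood at 0.991 without MPTP mouse 1 and Cracdl at 0.916. Meis2 encodes a homeobox factor of striatal projection neurons. For Npy they were Actl6b (0.992), a subunit of the neuronal chromatin remodeller, Ankrd33b (0.992) and Asb11 (0.991), and for Nos1 Ap3b1 (0.993), Cnst (0.986) and Cttnbp2 (0.983). For Pvalb they were Tgfbi (0.991), Tcf7l2 (0.980) and Shox2 (0.979), and the last 2, transcription factors of thalamic neurons, are also in the thalamus marker list. For Calb2 they were Zic2 (0.984), a zinc-finger factor on the list of septal and pallidal markers, Timp2 (0.980) and Slc39a12 (0.977). For Cort they were Thap7 (0.986), Ighmbp2 (0.973) and Igsf9 (0.972).

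Receptors through which these peptides act were measured as well. Of 13 receptor genes for somatostatin, neuropeptide Y and VIP-related peptides, 10 passed the filter, and 0 of them passed the adjusted threshold in any of the 6 comparisons. Their median difference was -0.13 for MPTP minus control, against 0.01 over all tested probe sets, and 0.03 for acupoint minus MPTP, against -0.04. These receptor medians without MPTP mouse 1 were -0.038 and -0.076. Npy1r, the Y1 receptor for neuropeptide Y, was at 6.97 and 6.64 in acupoint mice, 7.20 and 7.33 in non-acupoint mice, 7.36 and 7.22 in MPTP mice, and 7.18 and 7.33 in control mice. Both acupoint mice lay below all 6 others, and the share of tested probe sets that did so was not computed. The differences were -0.46 for acupoint minus non-acupoint (SE 0.14, unadjusted p = 0.013, adjusted p = 0.964), -0.49 for acupoint minus MPTP (adjusted p = 0.902) and -0.45 for acupoint minus control (adjusted p = 0.9999), all from limma. Of the 10 receptors Npy1r was the 1 under an unadjusted p of 0.05 in these 3 comparisons, against 2.12% of tested probe sets lower for acupoint minus non-acupoint, 2.56% for acupoint minus MPTP and 1.29% for acupoint minus control.

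Among genes of nitric oxide signalling, 12 of 12 passed the filter and 0 were called. Gucy1a2, a subunit of the nitric oxide receptor guanylate cyclase, was at 9.84 and 9.68 in MPTP mice and 9.38 and 9.53 in control mice. It was the 1 gene of the 12 under an unadjusted p of 0.05 for MPTP minus control (0.30, unadjusted p = 0.036, adjusted p = 0.932, limma), against 3.99% of tested probe sets in either direction and 2.11% higher, and the difference was 0.23 without MPTP mouse 1 (unadjusted p = 0.13, limma). The other cyclase subunits, Gucy1a1 and Gucy1b1, were chosen after their values were seen and were lowest in MPTP mouse 1. Gucy1a1 averaged 9.08 in MPTP mice and 9.69 in control mice, and Gucy1b1 9.69 in MPTP mice and 10.09 in control mice. MPTP mouse 2 lay above both controls, at 9.93 against 9.70 and 9.68 for Gucy1a1. For Gucy1b1 it was at 10.32 against 10.1 and 10.08, so that both differences changed sign without MPTP mouse 1. Of 8 genes of GABA synthesis and transport, 7 passed the filter and 0 were called, with medians of -0.17 for MPTP minus control and 0.13 for acupoint minus MPTP, which were -0.042 and 0.0048 without MPTP mouse 1. Slc6a13, a GABA transporter best known from non-neuronal cells, was at 6.47 and 5.93 in acupoint mice and 7.13 and 6.62 in MPTP mice, a difference of -0.68 (adjusted p = 0.902), or -0.42 without MPTP mouse 1. Gad1 and Gad2, which encode the enzymes that make GABA and were chosen after their values were seen, were both lowest in MPTP mouse 1. Gad1 was at 11.21 there, against 11.70 to 11.87 in the other 7 arrays, and Gad2 at 10.69, against 11.50 to 11.83. The rest of the tested list, also read after its values were seen, was mixed in that mouse. Slc32a1 (9.41) and Abat (11.0) were lowest there as well, whereas Slc6a11 (11.82) and Slc6a13 (7.13) were highest there. Aldh5a1 (8.91) was neither.

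Most of the transcription factors that specify interneurons lay below control in MPTP mice. Of 20 such genes 18 passed the filter, and 14 of the 18 were below 0 for MPTP minus control. Their median was -0.35, against 0.01 over all tested probe sets. Under an unadjusted p of 0.05 there were 5 lower and 0 higher, against 1.88% lower and 2.11% higher of tested probe sets, and 0 passed the adjusted threshold. Without MPTP mouse 1 the median was -0.15, against 0.01 over all tested probe sets. Markers of other cells lay below control in the same comparison, and their part was not tested. All 10 ependymal markers were below 0 with and without that mouse, 5 of them at an unadjusted p under 0.05 in both fits. All 13 medium spiny neuron markers were below 0 (median -0.87) with that mouse and above 0 (median 0.35) without it. Satb1, a chromatin organiser needed in somatostatin interneurons, was at 8.75 and 8.54 in acupoint mice, 8.88 and 8.86 in non-acupoint mice, 8.57 and 8.80 in MPTP mice, and 9.23 and 9.28 in control mice. All 6 MPTP-treated mice lay below both controls, and the share of tested probe sets that did so was not computed. The differences from control were -0.61 in acupoint, -0.38 in non-acupoint and -0.57 in MPTP mice, with adjusted p of 0.9999, 0.768 and 0.932, and the 3 share the same controls. With mouse 1 as the only MPTP array the Satb1 difference from control was -0.68.

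Dlx1 and Dlx2 encode homeobox factors of forebrain GABA neurons, projection neurons included. Dlx1 was at 8.38 and 7.96 in acupoint mice, 8.75 and 8.33 in non-acupoint mice, 6.88 and 7.91 in MPTP mice, and 8.45 and 8.51 in control mice. Both MPTP mice lay below the other 6. Its difference was -1.09 for MPTP minus control (unadjusted p = 0.013, adjusted p = 0.932) and 1.15 for non-acupoint minus MPTP (unadjusted p = 0.011, adjusted p = 0.639). These were -0.58 and 0.63 without MPTP mouse 1. With that mouse as the only MPTP array they were -1.61 and 1.66. Dlx2 differed by -0.55 for MPTP minus control (adjusted p = 0.932), by -0.35 without MPTP mouse 1, and by -0.76 with that mouse alone. Sox6 and Sp8, which act in developing interneurons, differed by 0.33 and 0.43 for non-acupoint minus MPTP, with adjusted p of 0.723 and 0.736, and by 0.23 and 0.21 without MPTP mouse 1. With that mouse as the only MPTP array the Sox6 and Sp8 differences were 0.43 and 0.66. For that comparison 3 of the 18 were higher at an unadjusted p of 0.05, against 3.51% of tested probe sets.

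Of 25 further interneuron peptides and markers 23 passed the filter, and 0 were called in any comparison. For non-acupoint minus MPTP 4 of the 23 were higher and 0 lower at an unadjusted p of 0.05, against 3.51% and 3.07% of tested probe sets, with a median of 0.24. The median without MPTP mouse 1 was -0.06 and the count 8 higher and 0 lower, against 8.0% and 6.57% of tested probe sets. In the same comparison all 10 ependymal markers lay above 0, 9 of them at an unadjusted p under 0.05 (median 0.69), and their part was not tested. Ndnf, a secreted factor that marks neurogliaform cells of the cortex, was at 7.35 and 7.08 in acupoint mice, 7.67 and 7.81 in non-acupoint mice, 6.77 and 7.09 in MPTP mice, and 7.47 and 7.36 in control mice. The non-acupoint mice lay above all others. The difference was 0.81 for non-acupoint minus MPTP (SE 0.15, unadjusted p = 0.0010, adjusted p = 0.517), -0.52 for acupoint minus non-acupoint (adjusted p = 0.964) and -0.49 for MPTP minus control (adjusted p = 0.932). Leaving out MPTP mouse 1, it was 0.65 for non-acupoint minus MPTP and -0.33 for MPTP minus control. With that mouse as the only MPTP array these were 0.97 and -0.65. Elfn1, a synaptic adhesion protein of somatostatin interneurons, had the same order of group means, with differences of 0.55, -0.34 and -0.31 in those comparisons.

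Tac2, which encodes neurokinin B, was at 7.10 and 7.20 in acupoint mice, 7.30 and 7.88 in non-acupoint mice, 6.37 and 6.92 in MPTP mice, and 6.91 and 6.74 in control mice. Both non-acupoint mice lay above all others. It differed by 0.95 for non-acupoint minus MPTP (adjusted p = 0.618) and 0.77 for non-acupoint minus control (adjusted p = 0.768). The first of these was 0.67 without MPTP mouse 1, and 1.22 with that mouse as the only MPTP array. Trh, which encodes thyrotropin-releasing hormone, was at 7.0 and 7.01 in acupoint mice, 8.01 and 7.31 in non-acupoint mice, 7.29 and 6.99 in MPTP mice, and 6.84 and 6.81 in control mice. It differed by 0.83 for non-acupoint minus control (adjusted p = 0.768) and -0.65 for acupoint minus non-acupoint (adjusted p = 0.964). Of 9 genes of peptide processing 8 passed the filter and 0 were called. Pcsk1, a convertase that cuts peptide precursors, was at 8.28 and 7.87 in acupoint mice, 8.51 and 8.54 in non-acupoint mice, 8.09 and 7.98 in MPTP mice, and 8.16 and 8.24 in control mice, and differed by 0.49 for non-acupoint minus MPTP (adjusted p = 0.654) and -0.45 for acupoint minus non-acupoint (adjusted p = 0.964). Both non-acupoint mice lay above all 6 others.

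**Figure D5:**
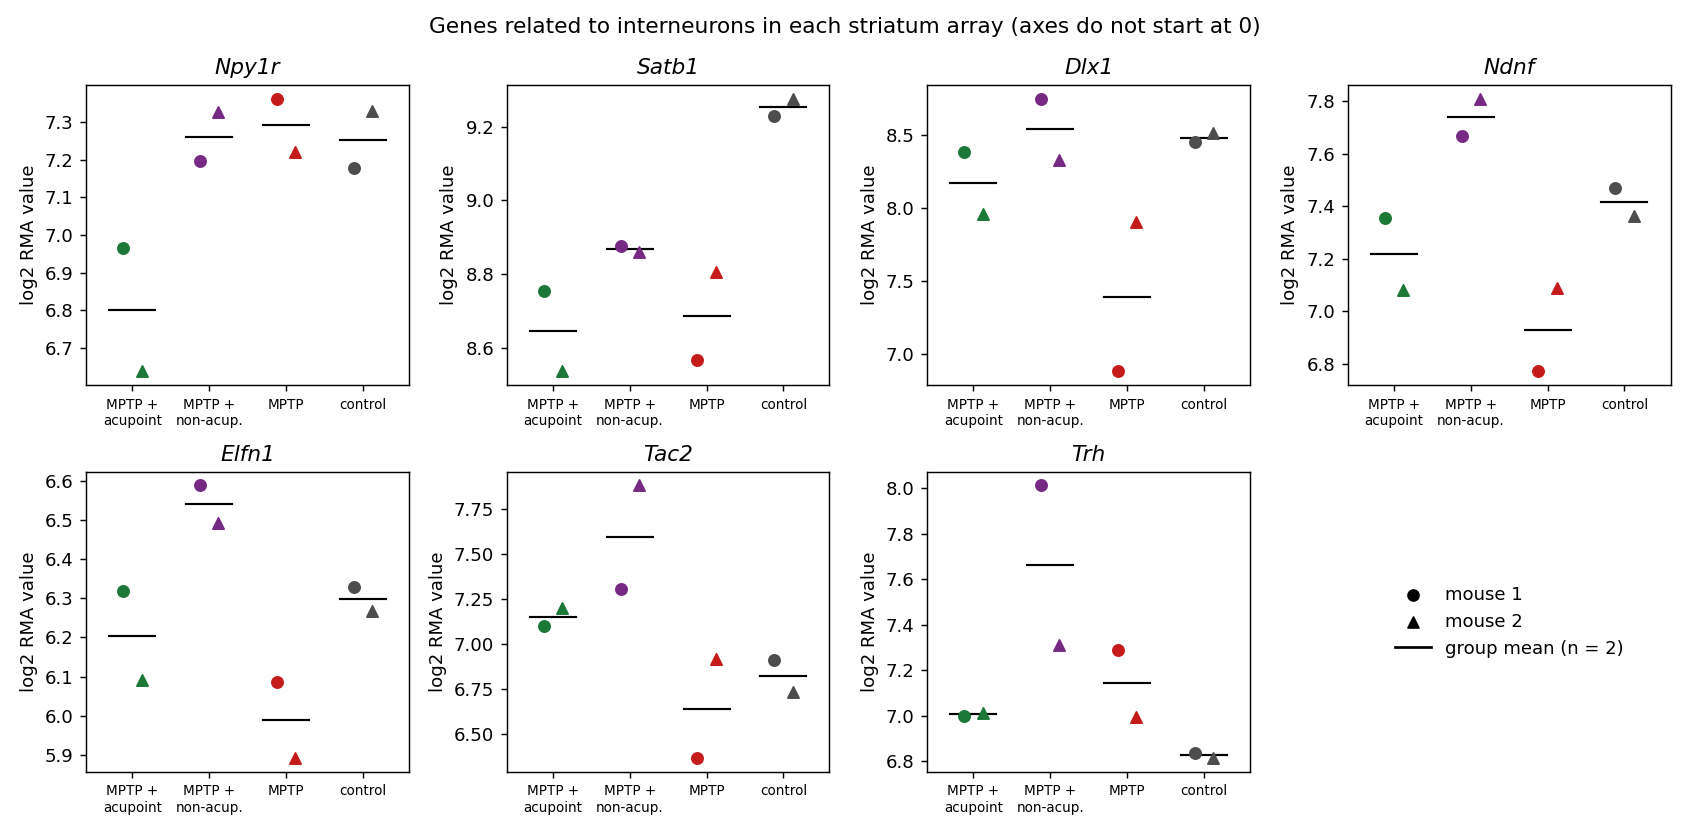
Log2 RMA value (vertical axes, not starting at 0) of 7 interneuron-related genes in each array, by group, with 1 point per mouse and a line at the group mean (n = 2). Npy1r is lowest in both acupoint mice (6.97 and 6.64), and Satb1 is higher in both controls (9.23 and 9.28) than in any MPTP-treated mouse.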

How the data were processed

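Striatal RNA (300 ng per array) from 8 mice was measured on Affymetrix whole-transcript arrays. Per the submitters' processing notes, the authors ran RMA in Affymetrix Expression Console (versions not given in the sources used here), and the deposited table was taken as log2 values, a scale that rests on those notes and on the range of values (array medians 6.02 to 6.12). RMA normalises arrays to a common distribution, so a shift of most genes cannot be seen. The deposited annotation gave 1 symbol for 21789 of 35557 probe sets. Tests used those with a mean of at least 5.25 (the 25th percentile), 16342 probe sets for 14890 genes. All groups were fitted in 1 model with limma 3.58.1 in R 4.3.3 (lmFit, eBayes; 4 residual and 2.94 prior degrees of freedom), with Benjamini-Hochberg adjustment over all tested probe sets and a threshold of 0.05. The replicates are labelled as separate mice, and their number limits the precision. Deviations of same-numbered mice correlated between -0.49 and 0.40 over pairs of groups, with no common sign. With 2 mice per group this cannot settle whether the numbers pair the samples, and the main fit used no pairing. On simulated data for MPTP against control, with 200 of 16342 probe sets changed, changes of 1 were recovered in 61% of cases and changes of 2 in 96%. The simulated spread was the same in every group, with no array standing apart as MPTP mouse 1 did. These rates therefore do not give the power for genes that differed between the MPTP mice as Sst, Npy, Pvalb and Calb2 did.

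The members and lists were chosen with earlier results of these data known. Named genes are every member, per list and comparison up to 3 genes with the smallest unadjusted p under 0.05, and per member the 3 genes with the highest correlation. Genes outside that rule are said to be so. Where a gene is said to set some mice apart from all others, the share of tested probe sets that did so was not computed. The alternatives were no filter, a filter at the 50th percentile, median centring, quantile normalisation, trend and robust shrinkage, array weights, a replicate block and leaving out each array.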

Additional observations from a re-analysis of the deposited data

How the results depend on the processing

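The number of probe sets called was 0 in all 6 comparisons and in the test among 4 groups under every alternative other than leaving out MPTP mouse 2. Over the fits that leave out each array in turn it spanned 0 to 1613 for MPTP against control, 0 to 1456 for acupoint against MPTP, 0 to 796 for non-acupoint against MPTP and 0 to 519 among the 4 groups, the high values being those without MPTP mouse 2. In that fit the medians for MPTP minus control rest on MPTP mouse 1. They were -0.61 for the interneuron transcription factors, -0.45 for the other markers and -0.27 for the nitric oxide genes. For the GABA genes the median was -0.29, for the receptors -0.089 and for the processing genes 0.085, against 0.025 over all tested probe sets. With the replicate block the calls were also 0, with 525 probe sets under an unadjusted p of 0.05 for MPTP against control (652 without it). Over the same leave-one-out fits, differences that took both signs spanned, for MPTP minus control, -1.20 to 0.21 for Sst, -1.04 to 0.45 for Npy, -0.58 to 0.37 for Nos1, -0.35 to 2.06 for Pvalb, -0.99 to 1.34 for Calb2 and -0.17 to 0.080 for Cort. For acupoint minus MPTP they spanned -0.11 to 1.29 for Sst, -0.46 to 1.03 for Npy, -0.12 to 0.84 for Nos1, -1.20 to 1.22 for Pvalb, -0.81 to 1.52 for Calb2 and -0.056 to 0.45 for Vip. For non-acupoint minus MPTP they spanned -0.25 to 1.15 for Sst, -0.72 to 0.77 for Npy, -0.16 to 0.79 for Nos1, -1.11 to 1.31 for Pvalb and -0.14 to 0.36 for Vip. For acupoint minus non-acupoint they spanned -0.18 to 0.27 for Nos1, -0.60 to 0.42 for Pvalb, -0.012 to 0.33 for Cort and -0.089 to 0.26 for Vip. For acupoint minus control they spanned -0.15 to 0.13 for Npy and -0.047 to 1.1 for Calb2. Scaling turned the sign of differences near 0 for Npy: non-acupoint minus MPTP was -0.0097 with array median centring and -0.0081 with quantile normalisation (0.021 as deposited), and acupoint minus control was 0.018 with median centring (-0.0088 as deposited). The pairs of genes that passed numbered 3 without MPTP mouse 1 and 0 without the 2 farthest arrays, against 8 over all arrays. In those settings r was 0.0011 and 0.022 for Nos1 with Cort (-0.034 over all arrays) and -0.25 and -0.19 for Nos1 with Vip (0.49 over all arrays). Calb2 for non-acupoint minus MPTP kept its sign but spanned 0.0020 to 2.33. The causes of these shifts were not tested. Vip, with a mean of 5.0, lay below the filter at 5.25, so dim signal limits its values.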
